A study of Mus musculus with 7 samples.

Results

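A set of 10 histone deacetylase genes was examined in ATAC-Seq data, where transposase insertions mark open chromatin. They were Hdac1, Hdac2, Hdac3, Hdac4, Hdac5, Hdac6, Hdac7, Hdac8, Hdac9 and Hdac11, and Hdac10 is not in the set. A site was assigned to a gene when its summit, the point of highest signal, lay in the gene body or within 20 kb of it (GENCODE vM21, mm10). This gave 205 sites of the 189097 in the data. The set was chosen by the peak calls at Hdac9, which has a site called in every WTAkita library and in no Ctrl library. The presence of that site is thus described and not tested.

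The cells were LSK cells, the Lineage-negative, c-Kit+, Sca-1+ bone marrow fraction of blood stem cells and multipotent progenitors, from adult C57/BL6 mice of 8 to 12 weeks. The 4 WTAkita libraries came from wild-type offspring of dams heterozygous for the Ins2 Akita mutation, which are hyperglycemic in gestation. In that scheme the mutant dams and their wild-type littermate females were both given a high-fat diet before mating. The 3 Ctrl libraries came from offspring of a normal pregnancy under a similar breeding scheme. All offspring were wild type and ate a regular diet, and each library was made from 50000 sorted cells. The sources used here do not give the number of mice or litters per library, and p-values thus rest on variation among libraries alone, which may be technical.

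The lists held 137963 to 151552 peaks, on an estimated 37600000 to 53100000 tags. Each peak carries a fold enrichment, the summit pileup over the background of the same library, so it is a level relative to the surroundings and not an amount of DNA. The median fold enrichment was lower in Ctrl replicate 1 and in WTAkita replicates 1 and 2 (5.25 to 5.79) than in the other 4 libraries (6.32 to 6.59). Of 9 LSK markers, all had a promoter site in every library, Kit and Ly6a (Sca-1) among them. So did 6 of 10 markers of mature lineages (Itgam, Hbb-bt, Klrb1c and Siglech among them) and 3 of 6 of other tissues (Myod1, Neurod1 and Cdh5). Of all protein-coding genes, 71.1% had a promoter site in every library. The part of other cells in the values below was not tested.

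Histone deacetylases remove acetyl groups from lysines of histones and other proteins, which in chromatin mostly goes with lower transcription. Class I enzymes (Hdac1, Hdac2, Hdac3 and Hdac8) are nuclear, and the first 3 are the catalytic subunits of corepressor complexes. Class IIa enzymes (Hdac4, Hdac5, Hdac7 and Hdac9) have little activity of their own, bind MEF2 transcription factors, and leave the nucleus when kinases phosphorylate them and 14-3-3 proteins bind. Hdac6, of class IIb, is a cytoplasmic tubulin deacetylase, and Hdac11 is the only class IV member. Among blood cells, Hdac1, Hdac2 and Hdac3 are known for roles in stem cells, Hdac7 in lymphocyte development and Hdac9 in regulatory T cells.

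The sequences under the sites that carry the results are given first, as 200 bases of the plus strand of mm10 centred on the summit. Capitals mark every match, on either strand, to one of 7 motifs. The letters TGTGGT stand for the RUNX family, AGATAA for the GATA family and GAGGAAG for the ETS family. For the AP-1 factors the letters were TGANTCA and for C/EBP factors TTGCNNAA, where N is any base. The MEF2 motif, of 10 letters, opens with CTA, closes with TAG and takes any base between them. The CTCF motif, of 12 letters, is given by name. The Hdac9 site of WTAkita libraries, at chr12:34894915-34895114, is shown for the difference in calls between the groups.
Hdac9 site called in WTAkita: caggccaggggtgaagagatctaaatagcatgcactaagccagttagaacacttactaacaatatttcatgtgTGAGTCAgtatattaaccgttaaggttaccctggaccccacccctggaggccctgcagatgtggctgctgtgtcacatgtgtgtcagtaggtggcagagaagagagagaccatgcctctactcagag
The window holds 1 motif match, to AP-1, and 1 CpG, and 28.0% of its bases are marked as repeats.

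The strongest intronic site of each class IIa gene is shown as the reference for what a site called in every library looks like, at chr1:91955014-91955213, chr11:102208902-102209101, chr15:97825048-97825247 and chr12:34811999-34812198.
Hdac4 strongest intronic site: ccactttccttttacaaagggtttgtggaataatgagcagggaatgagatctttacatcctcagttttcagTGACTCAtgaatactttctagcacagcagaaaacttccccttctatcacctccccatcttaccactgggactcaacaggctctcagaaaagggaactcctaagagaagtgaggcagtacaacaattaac
Hdac5 strongest intronic site: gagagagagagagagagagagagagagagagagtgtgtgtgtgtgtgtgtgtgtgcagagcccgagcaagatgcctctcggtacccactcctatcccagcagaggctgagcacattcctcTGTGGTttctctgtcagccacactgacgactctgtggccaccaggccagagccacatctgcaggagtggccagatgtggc
Hdac7 strongest intronic site: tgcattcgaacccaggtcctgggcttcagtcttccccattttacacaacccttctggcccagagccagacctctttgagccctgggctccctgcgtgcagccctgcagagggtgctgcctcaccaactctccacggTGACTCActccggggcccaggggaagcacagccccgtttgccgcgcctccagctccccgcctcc
Hdac9 strongest intronic site: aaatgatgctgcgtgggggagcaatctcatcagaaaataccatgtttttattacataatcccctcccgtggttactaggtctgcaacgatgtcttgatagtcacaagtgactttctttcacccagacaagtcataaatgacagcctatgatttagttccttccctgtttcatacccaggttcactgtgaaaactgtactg
The Hdac4 and Hdac7 windows each hold 1 AP-1 match and the Hdac5 window 1 RUNX match, and the Hdac9 window holds none of the 7 motifs. The Hdac5 window opens with a run of GA and GT repeats, and 42.5% of its bases are marked as repeats.

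The Hdac9 promoter site, at chr12:34907027-34907226, and the Hdac9 intronic site with the lowest value in WTAkita relative to Ctrl, at chr12:34783664-34783863, complete the set. The second was chosen after its values were seen.
Hdac9 promoter site: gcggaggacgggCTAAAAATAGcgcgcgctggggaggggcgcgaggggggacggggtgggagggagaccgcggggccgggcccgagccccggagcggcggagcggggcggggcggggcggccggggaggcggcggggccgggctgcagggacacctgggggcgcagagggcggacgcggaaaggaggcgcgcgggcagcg
Hdac9 intronic site, lower in WTAkita: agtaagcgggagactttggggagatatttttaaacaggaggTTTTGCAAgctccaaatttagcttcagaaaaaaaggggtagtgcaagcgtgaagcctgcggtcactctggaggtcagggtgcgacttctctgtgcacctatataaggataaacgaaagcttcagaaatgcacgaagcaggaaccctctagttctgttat
The promoter window is 82.5% G and C, with 31 CpGs, and holds 1 match to the MEF2 motif. The intronic window holds 1 C/EBP match and 6 CpGs.

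In windows of the same length, the MEF2 motif was present in 11 of the 205 sites (5.37%) and in 2.95% of all 189097 sites. Its letters take any base between CTA and TAG. AP-1 was found in 17 of the 205 (8.29%, against 8.05% of all sites), RUNX in 48 (23.4% against 24.1%), ETS in 34 (16.6% against 19.01%), GATA in 15 (7.32% against 8.05%) and C/EBP in 12 (5.85% against 8.02%). The CTCF motif was in 12 of the 205 (5.85%, against 7.65% of all sites), in 1 of the 104 class IIa intronic sites and in none of the 59 Hdac9 sites. Median G and C content was 45% in the Hdac9 sites, 47.25% in the class IIa intronic sites and 50% in all sites. These are matches of letters, not measured binding.

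Class IIa genes held most of the sites. They had 146 of the 205 sites and 104 of the 113 intronic ones, 53 in Hdac9, 32 in Hdac4, 15 in Hdac7 and 4 in Hdac5. The 4 class I genes had 37 sites, of which 9 were intronic (7 in Hdac8 and 2 in Hdac1). Hdac6 and Hdac11, with 10 and 12 sites, had no intronic site.

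**Figure D1:**
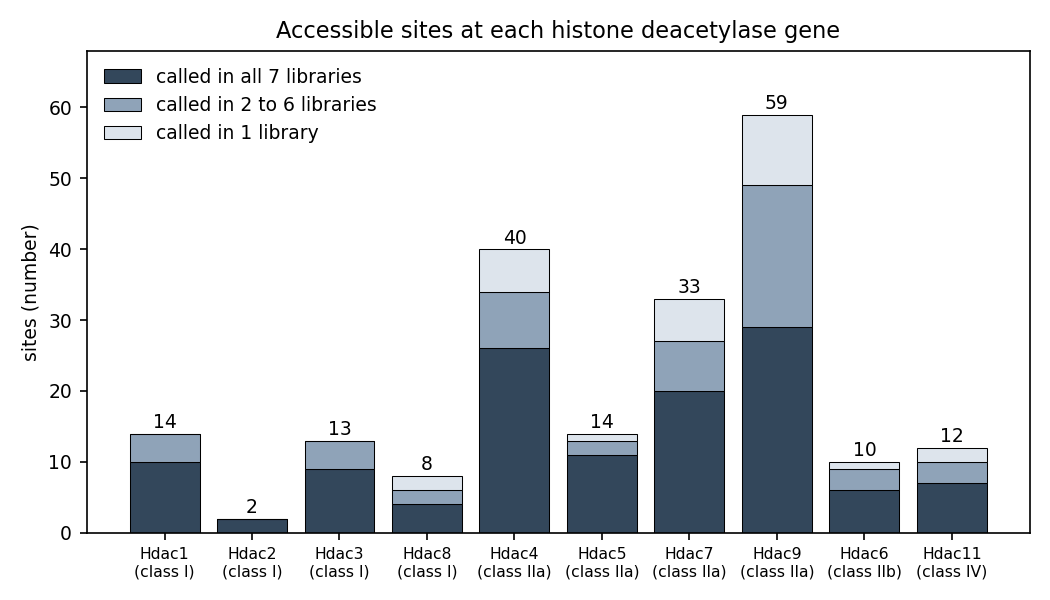
Number of accessible sites at each gene (vertical axis), split by how many of the 7 libraries called them. Hdac9 has 59 sites, of which 29 are called in all 7 libraries, and Hdac2 has 2, both called in all 7.

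Of the 205 sites, 124 (60.5%) were called in all 7 libraries, against 59.4% of all sites, and 28 (13.7%) in 1 library, against 12.8%. Hdac9 was below this with 29 of 59 (49.2%) called in all libraries, and Hdac5 above it with 11 of 14 (78.6%). By position, 113 sites were intronic, 20 lay within 1000 bp of an annotated start of their gene, 5 were in coding exons, 4 in UTRs, 1 in a noncoding exon and 62 in the flanks. A summit in a flank may belong to another gene, and 55 of the 205 were nearer to the start of another protein-coding gene, among them sites near Lck at Hdac1.

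The genes differ in length. Hdac9 spans 869.5 kb and had 6.79 sites per 100 kb of gene body, Hdac4 spans 266.9 kb with 12.7, and Hdac7 spans 51.8 kb with 34.7. Hdac8, the class I gene of 220.7 kb, had 3.17 per 100 kb. Among protein-coding genes of like length, 97.2% had fewer sites in their body than Hdac7, 86.7% fewer than Hdac9, 74.7% fewer than Hdac4 and 19.4% fewer than Hdac8. Hdac2, a 27.3 kb gene, had none in its body outside the promoter, whose summit lay 44 bp from its start.

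Along Hdac9, the accessible start was not that of the coding transcripts in GENCODE. Of the 7 distinct starts GENCODE gives, sites lay within 1000 bp of 1, the start of a retained-intron transcript at 34906979, with the promoter site summit 148 bp away. No library had a peak with its summit within 1000 bp of the 5 coding starts, of which 3 fall between 34528304 and 34528874, or of the 5′ end of the gene at 34917095. RefSeq, on the same assembly, lists 23 distinct starts of coding transcripts, and 7 of them had a site within 1000 bp. These include 4 at 34906978 to 34907015, so the promoter site is at a coding start in RefSeq and at a noncoding one in GENCODE. A further 3 sites called in all libraries, counted as intronic, lay within 1000 bp of RefSeq starts at 34724203 and 34726347.

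The 388.8 kb upstream of the longest GENCODE coding transcript held 33 of the 59 Hdac9 sites and 18 of the 29 called in all libraries, which is 4.63 per 100 kb. The 480.7 kb within that transcript held 26 and 11, or 2.29 per 100 kb. Of the 9 Hdac9 sites with a mean fold enrichment above 10, 6 were in the upstream stretch. Numbered on the transcript RefSeq selects, which starts at 34917095 and has 28 exons, intron 3 held 26 sites and intron 2 held 7, the promoter sites among them. The median distance between neighbouring summits was 8.45 kb and the largest 64.6 kb.

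**Figure D2:**
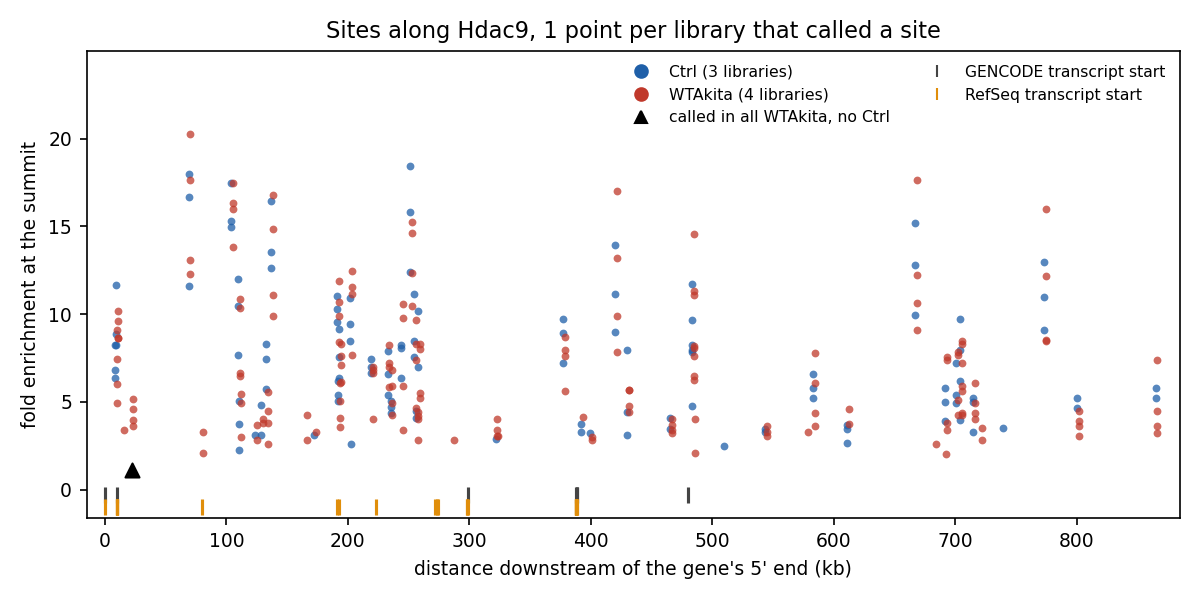
Fold enrichment (vertical axis) of each Hdac9 site in each library that called it, against its distance in kb downstream of the gene's 5′ end (horizontal axis), with Ctrl in blue and WTAkita in red. Ticks mark annotated starts, and the triangle marks the site at 22.1 kb called in the 4 WTAkita libraries and in no Ctrl library, whose values of 3.63 to 5.18 are among the low ones of the gene.

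The site called in one group lay at chr12:34894915-34895230 in intron 2 of the RefSeq transcript, 11964 bp from the nearest GENCODE start. Its fold enrichment was 3.63, 3.99, 5.18 and 4.57 in WTAkita replicates 1 to 4, on summit pileups of 17, 20, 21 and 20 tags. No Ctrl library had a peak there, and the nearest Ctrl summits were 11.8 to 12.1 kb away.

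At the genome background, a call at the authors' p of 0.01 needs a pileup of 8 to 10 tags in the Ctrl libraries. A missing peak therefore limits the Ctrl pileup to below about that level and does not show closed chromatin. Within their own lists the WTAkita values stood at percentiles 31.5 to 42.2, so the site was weak in every library that had it. It was the only one of the 205 sites called in all WTAkita and no Ctrl libraries, against 0.0973% of all sites, and none was called in all Ctrl and no WTAkita libraries, against 0.129%. The −log10 p of its peaks from MACS2 was 6.67, 8.24, 11.1 and 9.53 in WTAkita replicates 1 to 4. Limiting peaks to p under 1e-05 thus keeps these 4 calls and can add no Ctrl peak, so it tests nothing further.

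The presence of the other 58 Hdac9 sites is described without a test, since calls at this gene chose the set. Of these, 11 (18.97%) had no Ctrl peak and 3 (5.17%) no WTAkita peak, against 10.7% and 5.91% of all sites, where WTAkita has 1 library more. Of the 10 called in 1 library, 7 (70%) were in WTAkita libraries, against 62.2% of all sites called in 1 library. Another 5 were called in all WTAkita libraries and 2 Ctrl libraries (8.62%, against 2.25% of all sites). At each of them the missing library was Ctrl replicate 1, a library of low median fold enrichment. Genome-wide, 4246 sites were called in all WTAkita libraries and 2 Ctrl libraries. The missing library was Ctrl replicate 1 at 1878 of them, Ctrl replicate 3 at 1705 and Ctrl replicate 2 at 663. The cause of the missing calls was not tested. The highest of the 5 sites, at chr12 summit 34658382, had 6.97 and 10.2 in Ctrl replicates 2 and 3. In WTAkita it had 5.24, 5.51, 8.01 and 8.27.

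Peak counts at the genes include the calls by which the set was chosen and are given as a description, with no test. Hdac9 had 36, 40 and 41 peaks in Ctrl and 42, 37, 47 and 47 in WTAkita, with a Ctrl mean of 39.0 ± 2.65 (SD, n = 3) and a WTAkita mean of 43.25 ± 4.79 (SD, n = 4), and 1 peak of each WTAkita library is that of the site called in one group. WTAkita replicate 2 lay within the Ctrl range. For all 10 genes together the Ctrl mean was 153.3 ± 3.06 (SD, n = 3) and the WTAkita mean 160.5 ± 8.85 (SD, n = 4), with overlapping counts. As a share of all peaks of a library these counts were 0.109%, 0.102% and 0.110% in Ctrl. In WTAkita they were 0.112%, 0.107%, 0.112% and 0.113%, and the groups overlapped. With 50 kb on each side in place of 20 kb the counts were 208, 207 and 208 in Ctrl. In WTAkita they were 209, 209, 226 and 224, which do not overlap those of Ctrl, by 1 peak. Each WTAkita count includes 1 peak of the site called in one group. Without that peak the lowest WTAkita counts equal the highest Ctrl counts. The 2 highest counts were in WTAkita replicates 3 and 4. These libraries also had the most peaks in all, 151552 and 147979, against 137963 to 147698 in the others. Hdac2 had 2 peaks in every library.

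The 124 sites called in all libraries were compared on a log2 scale after quantile normalization, with limma over all 112377 such sites. None differed at an adjusted p under 0.05 (smallest adjusted p = 1.00 from limma), against 1 site in the genome (0.00089%). With 1 library left out, that count in the genome ran from 0 (without Ctrl replicate 1 or WTAkita replicate 3) to 8 (without WTAkita replicate 4), and was 2 or 3 without each of the others, while that among the 124 stayed 0. At an unadjusted p under 0.05, 2 of the 124 were higher in WTAkita, against 1.78% of all, and 2 were lower, against 2.12%. All 4 WTAkita libraries were above all Ctrl libraries at 4 sites, against 2.49% of all, and below them at 2, against 2.27%. The median difference was 0.01 with 66 sites above 0 and 58 below, and that of all sites was 0.01. No site but 1 differed by more than 0.58 in size.

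**Figure D3:**
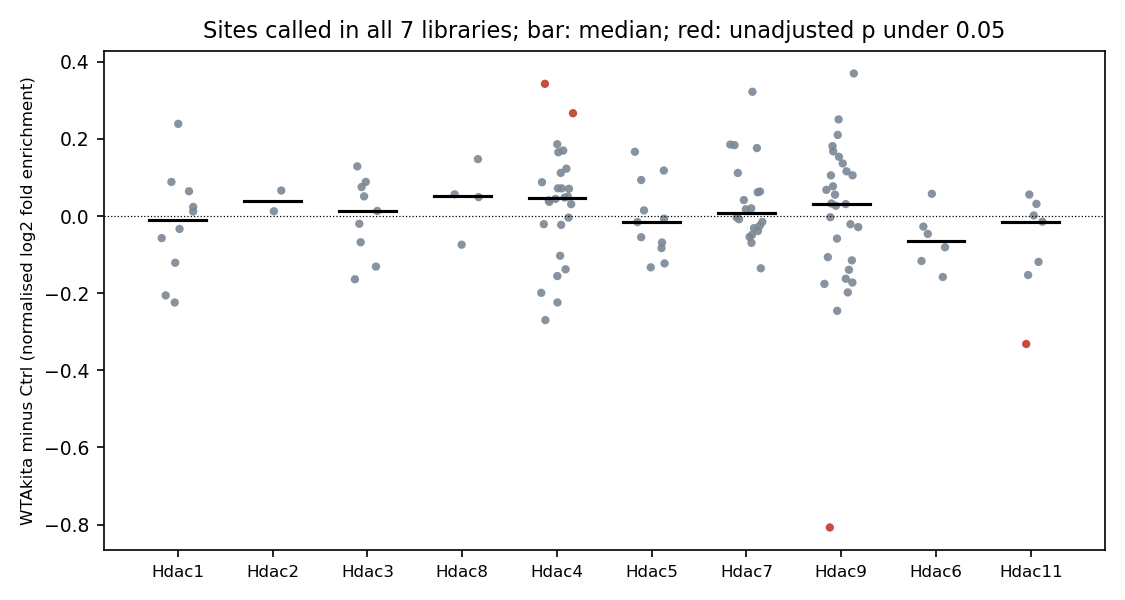
Difference between WTAkita and Ctrl in normalised log2 fold enrichment (vertical axis) for each of the 124 sites called in all 7 libraries, by gene, with the median as a bar and sites at an unadjusted p under 0.05 in red. Most points lie within 0.3 of 0, and 1 Hdac9 site stands at -0.81.

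That site is the intronic one at chr12:34783636-34784011 in intron 3 of the RefSeq transcript, 123215 bp from the nearest GENCODE start. The Ctrl fold enrichments there were 7.45, 8.32 and 5.73, and WTAkita had 2.62, 3.80, 5.56 and 4.51. The highest WTAkita value was just below the lowest Ctrl value. The difference was -0.81 (standard error 0.21, unadjusted p = 0.00155, adjusted p = 1.00 from limma), between -0.97 and -0.66 in the alternatives run. Summit pileups were 35, 42 and 22 in Ctrl and 12, 19, 23 and 20 in WTAkita, so the unscaled pileups overlapped between Ctrl replicate 3 and WTAkita replicate 3.

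The other 3 sites at an unadjusted p under 0.05 differed less. An intronic Hdac4 site at chr1:91960002-91960516 had 6.93, 7.54 and 8.94 in Ctrl and 9.80, 7.89, 10.4 and 9.51 in WTAkita, 0.34 higher (limma standard error 0.15, adjusted p = 1.00). The groups overlapped in these fold enrichments at WTAkita replicate 2 and did not after normalization. A second Hdac4 site, at chr1:92130119-92130946 in intron 2, had 14.5, 13.99 and 11.99 in Ctrl and 11.7, 14.9, 18.2 and 17.4 in WTAkita, a difference of 0.27 (0.16 without Ctrl replicate 3). A site 3′ of Hdac11 at chr6:91186533-91186901 had 10.97, 18.2 and 15.4 in Ctrl and 8.47, 10.1, 14.1 and 12.2 in WTAkita, a difference of -0.33 (-0.21 without Ctrl replicate 2), with overlapping groups.

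Next in rank were flanking sites. A site 3′ of Hdac7 at chr15:97786636-97787252 had 3.37, 3.64 and 4.03 in Ctrl and 4.12, 4.07, 4.78 and 4.88 in WTAkita. The WTAkita values were all above the Ctrl ones, by 0.32 on the normalised log2 scale (unadjusted p = 0.0520, adjusted p = 1.00 from limma). A site 5′ of Hdac11 at chr6:91139852-91140310 had 19.1, 22.2 and 26.6 in Ctrl and 16.1, 18.2, 22.7 and 20.7 in WTAkita, with a difference of -0.15 (-0.049 without Ctrl replicate 3) and overlapping groups.

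At none of the strongest intronic sites of the class IIa genes did the groups differ at an unadjusted p under 0.05. At Hdac4, the site at chr1:91954760-91955583, in intron 22 of the RefSeq transcript, had 19.9, 22.2 and 23.5 in Ctrl and 20.7, 20.4, 22.4 and 23.0 in WTAkita. Its mean of 21.7 was above that of the Hdac4 promoter site, 16.8. The next one, at chr1:92051866-92052680, had 17.9, 18.8 and 19.9 in Ctrl and 16.1, 18.6, 21.2 and 20.7 in WTAkita. The 2 differences were 0.05 and 0.09, with standard errors of 0.08.

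At Hdac9, the site at chr12:34811618-34812574 had 15.3, 17.5 and 14.9 in Ctrl and 13.8, 16.01, 17.5 and 16.3 in WTAkita. The site at chr12:34847302-34848190 had 11.6, 18 and 16.7 in Ctrl and 12.3, 13.1, 17.7 and 20.3 in WTAkita. The groups overlapped at each, and the differences were 0.07 (standard error 0.09) and 0.11 (standard error 0.12). Their means of 15.9 and 15.7 were above that of the Hdac9 promoter site, 9.42 and every value of the site called in WTAkita.

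At Hdac5, the site at chr11:102208731-102209361 had 9.59, 11.1 and 9.84 in Ctrl and 7.86, 9.03, 11.02 and 11.1 in WTAkita, and its neighbour at chr11:102207784-102208656 had 8.49, 10.6 and 10.4 in Ctrl and 6.39, 8.69, 10.3 and 9.37 in WTAkita. WTAkita replicate 1 was lowest at both. At Hdac7, the site at chr15:97824955-97825583 had 10.6, 11.4 and 12.2 in Ctrl and 9.42, 10.9, 12.2 and 11.5 in WTAkita. It had the highest pileups of the intronic sites described, 321 to 503 tags, with a mean fold enrichment of 11.2, since its local background was high, and it lay 412 bp from a RefSeq start. The next Hdac7 site, at chr15:97810011-97810357, had 6.20, 7.79 and 6.44 in Ctrl and 4.44, 5.43, 8.21 and 7.73 in WTAkita. The differences of these 4 sites were between -0.12 and 0.02.

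**Figure D4:**
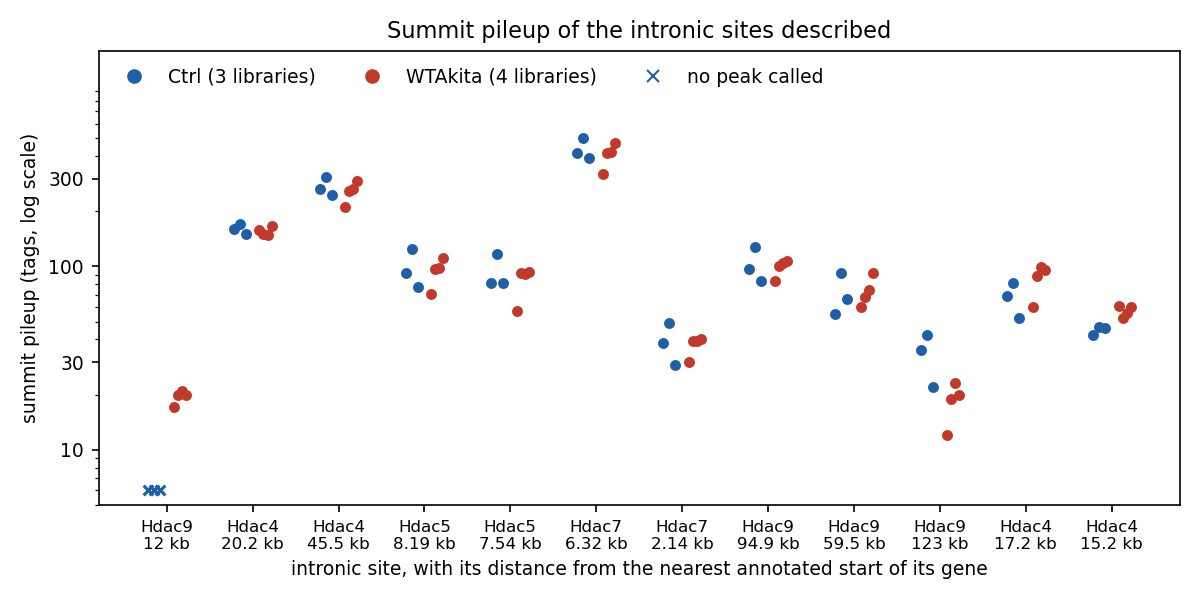
Summit pileup in tags (vertical axis, log scale, not scaled between libraries) of the 12 intronic sites described, each labelled with its gene and its distance in kb from the nearest GENCODE start, with Ctrl in blue and WTAkita in red. Crosses mark the 3 Ctrl libraries without a peak at the first Hdac9 site and stand at no value, and the 4 WTAkita pileups there, 17 to 21, are the lowest of the 12 sites except for the Hdac9 site at 123 kb.

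Fold enrichment at the promoters differed between the genes and, in the limma fit, not measurably between the groups. It is a level relative to the local background, which was high at the Hdac7 intronic site described above. The order below is thus not one of the amount of open chromatin. By mean fold enrichment the order was Hdac6 and Hdac1 (23.4 each), Hdac11 (20.4), Hdac8 (18.97), Hdac4 (16.8), Hdac5 (16.6), Hdac2 (13.0), Hdac3 (11.6), Hdac9 (9.42) and Hdac7 (5.69). Among 15581 protein-coding genes with a promoter site in every library, these stood from percentile 92.5 for Hdac6 down to 21.5 for Hdac9 and 6.94 for Hdac7. These ranks rest on GENCODE starts. Within 1000 bp of RefSeq starts, Hdac7 had a site with a mean of 11.2 and Hdac9 one with 10.3, each above its value here. None of the 10 promoters differed at an unadjusted p under 0.05, against 1.58% of all promoters, and the adjusted p was 1.00 from limma for each.

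In class I, the Hdac1 promoter had 21.8, 23.3 and 24.4 in Ctrl and 23.0, 22.6, 23.8 and 24.9 in WTAkita, a difference of 0.09 (standard error 0.08). Hdac2, which pairs with Hdac1 in the same complexes, had 12.3, 14.2 and 12.7 in Ctrl and 12.8, 12.7, 13.5 and 13.0 in WTAkita. Its lower level was outside the spread of Hdac1 in every library. Hdac3, the enzyme of the NCoR complex, had 10.6, 12.2 and 11.8 in Ctrl and 10.7, 10.3, 12.2 and 13.7 in WTAkita. Hdac8 had 16.7, 20.9 and 19.6 in Ctrl and 16.3, 18.3, 21.6 and 19.4 in WTAkita. In all 4 the groups overlapped, and the differences were 0.06 to 0.09, which with the summit pileup scaled by tags became -0.19 to -0.08.

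In class IIa, the Hdac4 promoter had 16.5, 17 and 17.5 in Ctrl and 16.2, 16.2, 16.05 and 18.2 in WTAkita, and that of Hdac5 had 15.6, 19.3 and 17.5 in Ctrl and 13.0, 14.8, 16.8 and 19.2 in WTAkita. The Hdac7 promoter had 4.99, 6.38 and 6.28 in Ctrl and 5.44, 5.79, 5.12 and 5.82 in WTAkita. The Hdac9 promoter had 8.27, 11.7 and 8.89 in Ctrl and 10.2, 8.66, 8.66 and 9.62 in WTAkita. Neighbours in the order of levels, such as Hdac4 and Hdac5, overlapped in their values. At these GENCODE promoter sites, each value of Hdac7 was below each value of Hdac9. Differences between the groups were 0.04, -0.07, -0.01 and 0.03, with standard errors of 0.08 to 0.16. As at Hdac9, no site lay within 1000 bp of the 5′-most Hdac7 start in GENCODE, with the nearest summit 2999 bp away, while the other 8 genes had one there.

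The Hdac6 promoter had 25.3, 24.3 and 24.0 in Ctrl and 22.1, 22.1, 23.3 and 23.1 in WTAkita. These fold enrichments did not overlap, with means of 24.5 ± 0.67 (SD, n = 3) and 22.7 ± 0.65 (SD, n = 4), but after normalization the groups overlapped and the difference was -0.05 (standard error 0.09, adjusted p = 1.00 from limma). The Hdac11 promoter site, at an internal start, had 16.8, 24.0 and 20.9 in Ctrl and 12.4, 16.1, 26.6 and 26.0 in WTAkita. The spread among its WTAkita libraries, with an SD of 7.13, was the widest of the 10. The promoter site used for each gene was the one of highest mean fold enrichment. At Hdac11 a second promoter site, 9 bp from the 5′ start of the gene, was also called in all libraries, with a mean of 19.4.

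**Figure D5:**
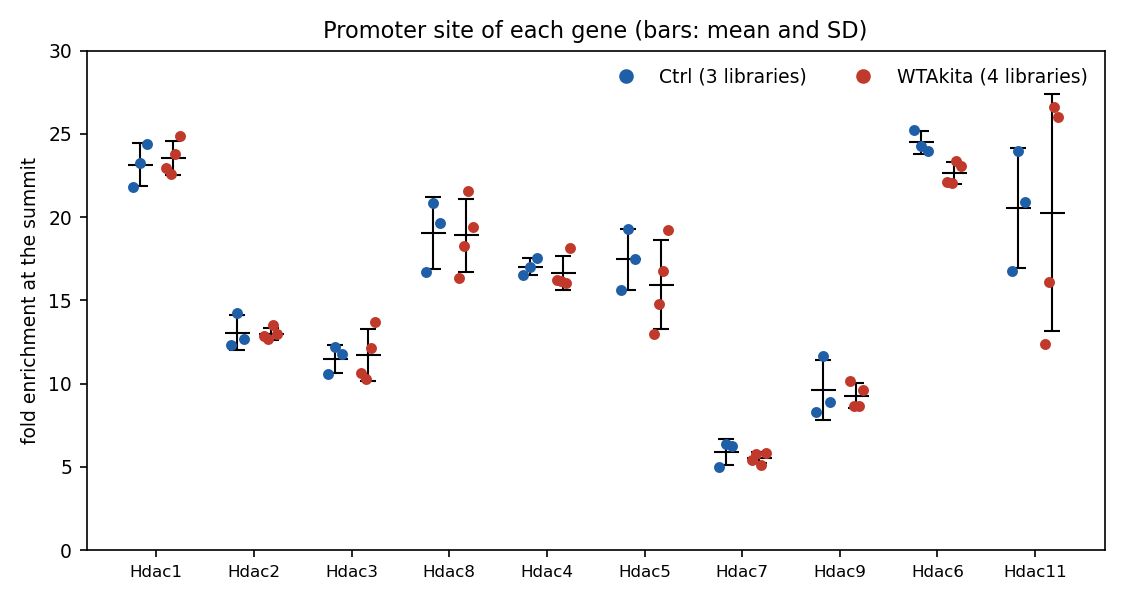
Fold enrichment (vertical axis) of the promoter site of each gene in each library, Ctrl in blue and WTAkita in red, and black bars for the mean and SD of each group. Levels run from 4.99 at the lowest for Hdac7 to 26.6 at the highest for Hdac11, and the groups overlap at each gene but Hdac6.

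The partners of these enzymes were examined at their promoters, in 8 lists of 59 genes written from general knowledge. Of these, 58 (98.3%) had a promoter site in every library, against 71.1% of all protein-coding genes. The exception was the acetyltransferase gene Kat2b. None of the 58 differed at an unadjusted p under 0.05 from limma, against 1.58% of all promoters. Differences were above 0 for 43 and below 0 for 15, with a median of 0.05, against 0.03 for all 15581 promoters, of which 10214 were above 0. Scaling the summit pileup by tags moved the median of all sites from 0.01 to -0.12, so the sign of such small differences depends on the scale.

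By complex, 8 of 11 NuRD genes were above 0 and 3 below, from Chd4, the remodeling ATPase, at 0.13 (standard error 0.15) to Chd3 at -0.06 (standard error 0.17). Of 11 Sin3 genes 10 were above 0 and 1 below, from Brms1 at 0.16 (standard error 0.10) to Sin3b, a scaffold, at -0.02 (standard error 0.06). CoREST had 3 of 5 above 0, from Rcor3 at 0.12 to Rcor2 at -0.10. The NCoR list had 4 of 5 above 0, with Ncor1, a corepressor scaffold, at -0.06. None of these passed the test.

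The factors and regulators that class IIa enzymes bind did not differ at the test either. Of the 4 MEF2 genes, 2 were above 0, from Mef2c at 0.12 (standard error 0.09) to Mef2a at -0.05. The 8 kinase genes were split 4 and 4, from Sik3 at 0.10 to Prkd3 at -0.08. All 6 of the 14-3-3 genes were above 0, between 0.01 for Ywhah and 0.10 for Ywhag. Of 8 acetyltransferase genes, whose enzymes add the mark that deacetylases remove, 6 were above 0, from Kat5 at 0.20 (standard error 0.11, unadjusted p = 0.0940, adjusted p = 1.00 from limma) to Kat8 at -0.09.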

How the data were processed

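ATAC-Seq peak lists of 3 Ctrl and 4 WTAkita libraries of LSK cells were used. Per the submitters' processing notes, reads were trimmed (Trim Galore 0.4.2, cutadapt 1.9.1) and mapped to mm10 (Bowtie2 2.3.4.1), and the authors called the peaks of each library alone at p under 0.01 with MACS2 (version 2.1.4 in those notes) and no control. The fold enrichment deposited for a peak is a ratio, its summit pileup over the local background in that library, with 1 added to both. The deposited −log10 p-value and q-value are for the summit and grow with depth. The deposited score, 10 times the −log10 p, was left out.

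Lines with the same start and end counted once, on the 19 autosomes, X and Y. Sites were peaks of all libraries, taken in order of their percentile of fold enrichment within a library, dropping any that shared 50% of the shorter length with one taken. A library had a site when a peak shared that much of it, and the value was the highest fold enrichment with its summit inside. Summit pileups, solved from fold enrichment and p, were whole within 0.02 for 99.9958% or more of the lines of a library. Tags were estimated from the background and an extension of 150 bp. Depth enters through the pileup, and no count of reads per site was available to give an interval. Sites called in all 7 libraries were tested as quantile-normalized log2 values with limma 3.58.1 (trend, R 4.3.3) and Benjamini-Hochberg adjustment over all 112377 of them. The fit was first run on simulated data with the same normal noise at every site. That run does not cover the wider spread of weak sites. Peak counts include calls that chose the genes and are given without a test.

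The study tested read counts under peaks, which were not used here. The genes, lists and tests were chosen with earlier results of these data known. Named were all genes, their promoter sites, sites of a single group, the 2 strongest intronic sites of each class IIa gene, the 3 sites farthest above and the 3 farthest below 0 by statistic, and 1 gene above and 1 below 0 per list, of which 1 is not reported here. Sequences and RefSeq transcripts came from GRCm38.p6, the assembly of mm10. Tables were made in Python 3.11.15 (numpy 2.4.6; pandas 2.3.3; scipy 1.17.1). Alternatives covered peak threshold, flank, overlap, drawing of sites, value, normalization, test, filter, replicate block and each library left out.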

Additional observations from a re-analysis of the deposited data

Results flagged for a closer look

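The count of peaks at Hdac1, Hdac8 and Hdac6 in WTAkita each had 1 library apart from 3 equal ones, so that the gap was the whole range (ratio 1.0 for each). The counts were 11, 12, 12 and 12 at Hdac1, 6, 6, 7 and 6 at Hdac8, and 8, 8, 9 and 8 at Hdac6, a difference of 1 peak. The library apart was WTAkita replicate 1 at Hdac1 and WTAkita replicate 3 at the others. In all, 34 groups were examined and 3 were flagged. Chance flags about 1 in 20 for values without ties. Counts with 3 equal values and 1 apart reach a ratio of 1.0 at any gap, so that rate does not hold for these.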

How the results depend on the processing

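No site of the 10 genes passed an adjusted p under 0.05 from limma in any of the alternatives run. At an unadjusted p, the 2 sites higher and 2 lower became 0 and 1 with the summit pileup scaled by tags. The lower count was 1 with only sites above the median level, with peaks under 1e-05 or in the gene body, and 4 with 50 kb on each side. Sites called in all libraries were 79 in the gene body, and with peaks under 1e-05 there was 1 site called in all Ctrl and no WTAkita libraries, 3′ of Hdac5. With 1 library left out, 0 to 4 sites were higher and 1 to 3 lower. WTAkita replicate 3 left none higher, and Ctrl replicate 3 left 4. Whether replicate numbers pair the libraries could not be told. Correlations of deviations were 0.20, 0.03 and 0.06 for equal numbers and from -0.18 to 0.096 for unequal ones. A replicate block gave 6935 sites of the genome at an unadjusted p under 0.05 from limma, in place of 4376.

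Small differences changed sign. With the summit pileup scaled by tags, promoters were at -0.082 (Hdac1), -0.091 (Hdac2), -0.086 (Hdac3), -0.19 (Hdac8), -0.13 (Hdac4) and -0.065 (Hdac11), and the strongest intronic sites at -0.080 and -0.12 (Hdac4), -0.14 (Hdac7) and -0.081 (Hdac9). The median of all sites, -0.12 on that scale, is of this size. The Hdac11 promoter was at -0.0090 with median centring and -0.085 with the replicate block, which put Hdac7 at 0.022. With 1 library left out, promoters ranged from -0.0084 to 0.13 (Hdac2), -0.026 to 0.10 (Hdac4), -0.090 to 0.074 (Hdac7), -0.099 to 0.13 (Hdac9), -0.10 to 0.031 (Hdac6) and -0.11 to 0.14 (Hdac11). Intronic sites ranged from -0.051 to 0.022 (Hdac5, strongest), -0.030 to 0.055 (Hdac7, strongest), -0.14 to 0.028 (Hdac7, the next) and -0.022 to 0.19 (Hdac9, the next). The cause was not tested. Merged peaks for the differences between groups, and other peak thresholds and overlaps for promoters, were added after the data were seen and reversed none of these. The Hdac9 site at -0.81 could not be fitted with peaks under 1e-05, where it is not called in every library, or among sites above the median level. Counts of tags near 20 at the weak Hdac9 sites limit what a missing call shows.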
